A study of Mus musculus with 6 samples.

Results

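Foxo1, Foxo3, Ddit4, Mtor, Rptor, Rictor, Tsc1, Tsc2, Sesn1 and Irs2 connect insulin signalling and stress to cell growth, and their mRNA levels were compared between female and male embryonic mouse brains. These 10 genes were chosen by name, as Foxo and mTOR pathway genes. Foxo1 and Ddit4 are also among the genes that the study paired with miRNAs because they differed between the sexes in these samples, so their direction here is not independent evidence. By symbol, 10 transcript IDs of 23485 in the count tables belonged to 9 of the 10 genes, and 7 of these IDs had enough counts to be tested, of 13374 tested in all. The level of Tsc2 was not analysed here.

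Samples were whole brains of wild-type C57BL/6 mice at E15.5 (the embryonic day), with 3 female and 3 male samples and no treatment. Sex was read from the gonads, by whether testicular cords could be seen, and RNA of several embryos was pooled for each sample. A sample value is therefore an average over a pool, and p-values measure only the spread between these pools. RNA-seq counts were taken per RefSeq transcript ID, and levels are given as CPM, counts scaled to a common library total with factors from TMM (trimmed mean of M values).

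Foxo proteins are transcription factors that switch on genes of stress resistance, cell cycle arrest and autophagy. When insulin or growth factors act through PI3K, the kinase Akt phosphorylates Foxo proteins, and they leave the nucleus. The same Akt branch relieves the TSC complex of Tsc1 and Tsc2, a brake on the small GTPase Rheb, which activates the kinase mTOR. mTOR works in a pair of complexes, mTORC1 with Raptor (encoded by Rptor) and mTORC2 with Rictor, and mTORC1 drives protein synthesis and growth in neural progenitors and neurons. Ddit4 (also called REDD1) is induced by hypoxia, glucocorticoids and energy stress and restrains mTORC1 through the TSC complex. Sesn1 restrains mTORC1 when amino acids such as leucine are scarce, and Irs2 is an adaptor that carries the insulin and IGF receptor signal to PI3K.

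Ddit4 was considered in the study as a target of miR-221-3p, and the miRNA and a seed match found here by searching the Ddit4 3′UTR are shown because Ddit4 gave the largest sex difference among the tested IDs of these genes. miRNAs were not measured in the count tables used here. The mature miRNA from RefSeq (GRCm38.p6, chromosome X, 19146307 to 19146329, minus strand) and 30 bases of the Ddit4 3′UTR (NCBIM37, chr10:59412980-59413009, minus strand) are written 5′ to 3′, with capitals for the seed, bases 2 to 8 of the miRNA, and for the matching bases of the mRNA.
miR-221-3p: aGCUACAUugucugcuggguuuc
Ddit4 3′UTR: gctggatgtgtATGTAGCatgtaccttatt
The match lies at positions 286 to 292 of a 3′UTR of 861 bases. The letters ATGTAGC, searched on the mRNA strand only, were found in the longest annotated 3′UTR of 2 of the 10 genes, Ddit4 and Tsc2. Among all genes, 1629 of 19915 longest 3′UTRs (8.18%) held these letters, and among UTRs within 10% of the length of that of Ddit4 it was 63 of 1219 (5.17%). The match is a description of the sequence and no evidence that the miRNA acts there.

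Library totals ranged from 4908565 to 10294443 counts, and a level of 3 counts, the limit that a count of 0 allows, was 0.3 to 0.599 CPM (counting error only). Male sample 1 had the highest total and also the most transcript IDs without a count, 6743. Male sample 2 followed with 6280, and the remaining samples had 4120 to 5183. Sex marker transcripts matched the labels of all 6 samples. Neuronal markers were abundant, with a summed level of 2570 to 3010 CPM in females and 2890 to 3740 CPM in males. Transcripts of skeletal muscle (3850 to 5970 CPM over the 6 samples), surface epithelium (1460 to 2460 CPM) and meninges or fibroblasts (17500 to 25800 CPM) were also present in these samples labelled whole brain. In bulk RNA of this kind, fewer cells of a type and less RNA per cell cannot be told apart.

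Several of the 10 genes could not be followed at the transcript IDs used. Rptor, the defining subunit of mTORC1, had 5, 2 and 3 counts in females and 1, 2 and 3 in males at NM_028898 (chr11:119464219-119760890, plus strand). Tsc1, a scaffold of the TSC complex, had a single count, in female sample 2, at NM_001289575 (chr2:28496748-28546687, plus strand). A second ID of Sesn1, NM_001013370, had 2, 0 and 3 counts in females and 3, 1 and 7 in males. All 3 IDs stayed below 10 counts in every sample and were not tested. These values are at or near the 3-count limit and are not evidence that the brain lacks these mRNAs. RefSeq lists several curated mRNA IDs for each of these genes, 2 for Rptor, 3 for Tsc1 and 2 for Sesn1, and 1 ID was used here for Rptor and for Tsc1.

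The pattern extended beyond these genes. Among genes with 1 curated mRNA ID, 11742 of 13173 (89.1%) had an ID used here and their median level was 14.3 CPM. With 2 curated IDs the median was 0.673 CPM over 3149 of 4045 genes, and with 3 or more it was 0.687 CPM over 2707 of 3813 genes. Foxo1, Ddit4, Mtor, Rictor and Irs2 each have 1 curated ID. Foxo3 has 2, of which 1 was used, and still reached 86.1 CPM in females. How reads shared by several transcripts were counted is not stated, so a low count at one ID of a gene with several is uncertain as a measure of the gene.

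**Figure D1:**
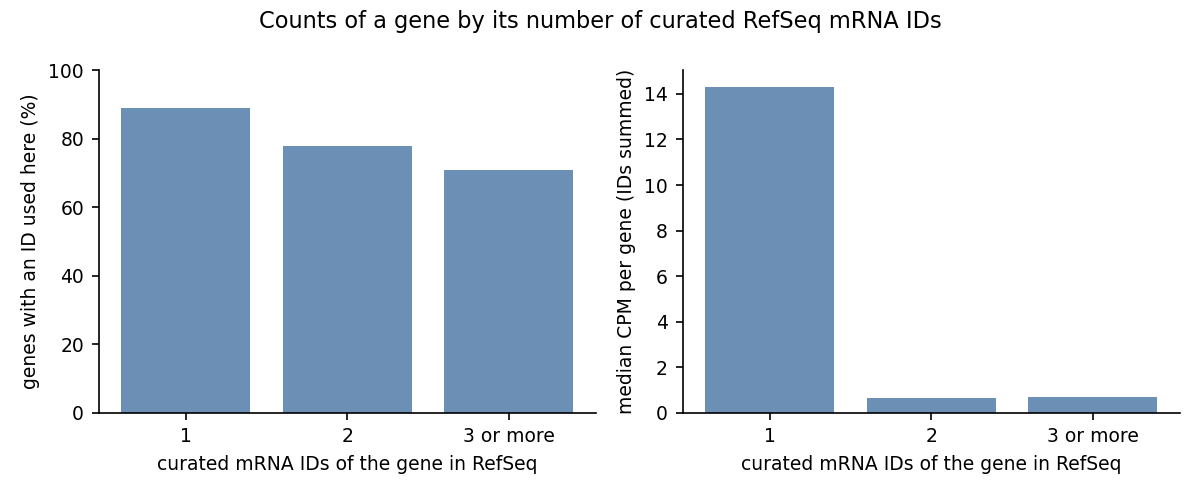
Bars by the number of curated RefSeq mRNA IDs of a gene (1, 2, or 3 or more, horizontal axes) give the share of genes with an ID used here (%, left) and the median level of those genes with their IDs summed (CPM, right). The share goes from 89.1% to 77.8% and 71.0%, and the median level is 14.3 CPM for genes with 1 ID, 0.673 CPM with 2 and 0.687 CPM with 3 or more.

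Foxo1 was lower in males than in females in every sample, whereas Foxo3 was slightly higher. Foxo1 (NM_019739, chr3:52072259-52154031, plus strand) was at 93.2, 102 and 89.1 CPM in females and at 73.9, 55.3 and 70.9 CPM in males. The sexes did not overlap, and male sample 2 was the lowest. Mean levels were 94.7 ± 6.5 CPM in females and 66.7 ± 9.95 CPM in males (SD, n = 3 each), a log2 fold change (male over female) of −0.50 (SE 0.14, 95% interval −0.81 to −0.19). This difference did not pass adjustment over all transcripts (adjusted p = 0.341, edgeR's quasi-likelihood test with Benjamini-Hochberg adjustment). RUVr factors are covariates estimated from model residuals. With DESeq2 and 1 RUVr factor it did pass (log2 fold change −0.52, adjusted p = 0.0308). With DESeq2 alone it did not (adjusted p = 0.0697). Summed endothelial and pericyte markers, cell types in which Foxo1 is well known, were also without overlap, at 954 to 968 CPM in females and 856 to 943 CPM in males, with 6 of 9 markers measured. Their part in the Foxo1 difference was not tested.

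Foxo3 (NM_019740, chr10:41901647-41996561, minus strand) was at 86.7, 82.7 and 88.8 CPM in females and at 92.8, 94.9 and 96.6 CPM in males. Male samples were all above the female samples, although the distance between the closest samples was small. The means were 86.1 ± 3.12 and 94.8 ± 1.87 CPM (SD, n = 3 each), with a log2 fold change of 0.14 (SE 0.12, 95% interval −0.12 to 0.40, edgeR adjusted p = 0.671). Within each sample, the log2 ratio of Foxo1 to Foxo3 counts was 0.1, 0.3 and 0.0 in females and −0.33, −0.78 and −0.45 in males. The ratio was lower in every male sample, by 0.65 on average (log2 ratio −0.65), and the two-sided exact permutation p was 0.1, the smallest that 3 against 3 samples allow (Benjamini-Hochberg adjusted p = 0.1 over 2 ratios). A ratio within a sample does not depend on the library scaling, but it shows unequal levels and not which factor differed.

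Ddit4 had the largest fold change of these genes and was higher in males. Ddit4 (NM_029083, chr10:59412423-59414518, minus strand) was at 43.1, 35.4 and 56.7 CPM in females and at 92.6, 62.2 and 68.1 CPM in males. The sexes did not overlap, although female sample 3 came close to male sample 2, and male sample 1 was the highest. The means were 45.0 ± 10.8 and 74.3 ± 16.1 CPM (SD, n = 3 each), a 1.65-fold higher level in males with a log2 fold change of 0.71 (SE 0.19, 95% interval 0.29 to 1.14). The difference did not pass adjustment in edgeR (adjusted p = 0.338) and passed in DESeq2 (adjusted p = 0.0455) and in DESeq2 with 1 RUVr factor (adjusted p = 0.00729). Leaving out each sample in turn gave log2 fold changes from 0.52 without male sample 1 (edgeR adjusted p = 0.333) to 0.93 without female sample 3 (adjusted p = 0.0691).

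Genes that respond to hypoxia, glucocorticoids, other stress or stimulation were examined beside Ddit4, and none of them passed the test. Of 14 tested IDs of a hypoxia response list, 11 had a positive log2 fold change, beside 49.0% of all tested IDs, with a median of 0.11 beside −0.01 over all tested IDs. The summed level of this list was 779 to 833 CPM in females and 802 to 1040 CPM in males, and the highest value was that of male sample 1, which also had the highest Ddit4. Slc2a1, a glucose transporter, was at a log2 fold change of 0.35 (SE 0.15, edgeR adjusted p = 0.4), and Bnip3l, a mitophagy receptor, at 0.06 (SE 0.14, adjusted p = 0.903). The highest value of this list, 1.26 (SE 0.87, adjusted p = 0.58), was that of P4ha1, an enzyme of collagen hydroxylation, at no more than 18 counts in any sample. The glucocorticoid response list had a median of −0.07 over 8 IDs, which ranged from −0.93 to 0.57. Among those of at least 50 counts on average, the lowest was Tsc22d3 (NM_010286), a glucocorticoid-induced leucine zipper, at −0.42 (SE 0.29, adjusted p = 0.578), and the highest was the phosphatase Dusp1 at 0.17 (SE 0.2, adjusted p = 0.751). The integrated stress response list had a median of 0.16 over 9 IDs, with Phgdh, an enzyme of serine synthesis, at 0.47 (SE 0.23, adjusted p = 0.442) and the cystine transporter Slc7a11 at −0.06 (SE 0.17, adjusted p = 0.915). Immediate early genes, which respond quickly to stimulation and handling, had a median of 0.16 over 10 IDs, from Nr4a1 at −0.05 (SE 0.2, adjusted p = 0.937) to Junb at 0.61 (SE 0.25, adjusted p = 0.385). Positive values made up 7 of these 10, 7 of 9 in the integrated stress response list and 3 of 8 in the glucocorticoid response list. Choroid plexus markers were without overlap in the same direction as Ddit4, with a summed level of 555 to 664 CPM in females and 683 to 853 CPM in males. Of these markers 4 of 5 were measured. Among the cell type marker lists, only this list and that of endothelial cells and pericytes were without overlap. The part of hypoxia, handling or choroid plexus in the Ddit4 difference was not tested.

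**Figure D2:**
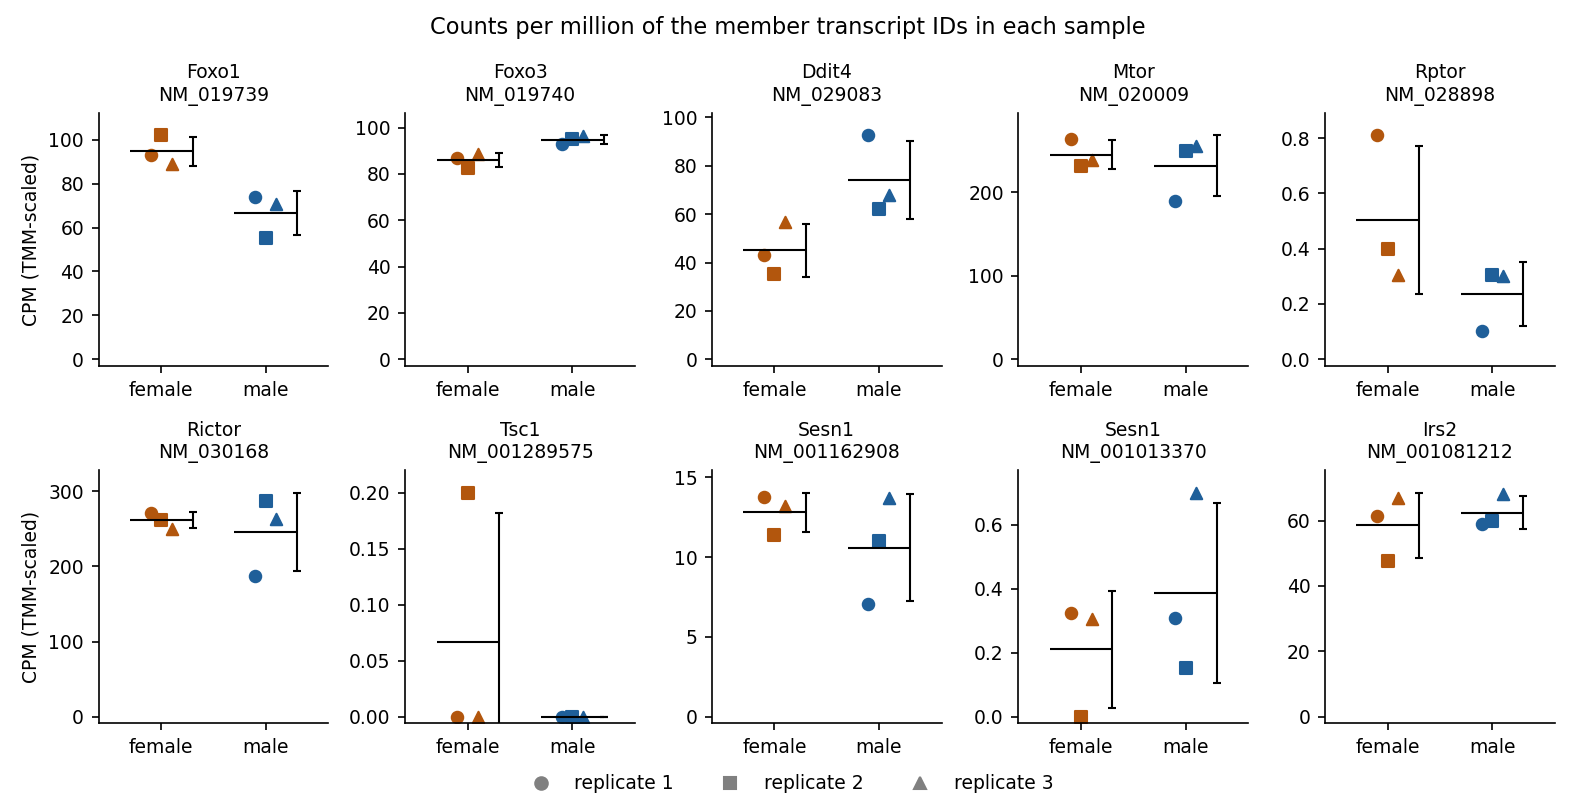
Level (CPM, TMM-scaled, linear axes from 0, a scale of its own for each ID) of the 10 transcript IDs in the 3 female and 3 male samples, with symbols for replicates, a line at the mean and a bar for the SD (cut at 0 for Tsc1). Ddit4 is without overlap at 35.4 to 56.7 CPM in females and 62.2 to 92.6 CPM in males, Foxo1 is without overlap in the opposite direction, and Mtor, Rictor, Irs2 and NM_001162908 of Sesn1 overlap.

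The kinase Mtor and its mTORC2 partner Rictor were at similar levels in both sexes apart from male sample 1. Mtor (NM_020009, chr4:147822720-147931792, plus strand) was at 264, 231 and 239 CPM in females and at 190, 250 and 255 CPM in males. Rictor (NM_030168, chr15:6658381-6750398, plus strand) was at 271, 262 and 250 CPM in females and at 187, 287 and 263 CPM in males. In both genes male sample 1 was the lowest of the 6 samples, and the other samples of the sexes overlapped. The log2 fold change was −0.08 for Mtor (SE 0.14, 95% interval −0.37 to 0.22, edgeR adjusted p = 0.853). For Rictor it was −0.09 (SE 0.15, 95% interval −0.42 to 0.23, adjusted p = 0.844). Without male sample 1 the values were 0.04 for Mtor and 0.07 for Rictor, so neither gene had a stable direction. The intervals leave room for differences of the size seen for Sesn1. The ratio of Rptor to Rictor rested on 1 to 5 Rptor counts per sample, at the counting limit, and is not interpreted (log2 difference −0.87, two-sided exact permutation p = 0.1, the smallest possible).

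Sesn1 was measured at a low level through its ID NM_001162908 (chr10:41530380-41628230, plus strand), with 13.8, 11.4 and 13.2 CPM in females and 7.04, 11.0 and 13.7 CPM in males. The sexes overlapped, and male sample 1 was again the lowest. The log2 fold change was −0.28 (SE 0.26, 95% interval −0.84 to 0.29, edgeR adjusted p = 0.699), and it was −0.05 without male sample 1 and −0.51 without male sample 3. Irs2 (NM_001081212, chr8:10986980-11008458, minus strand) was at 61.3, 47.5 and 66.9 CPM in females and at 59.1, 59.9 and 68.1 CPM in males. The sexes overlapped here as well, and female sample 2 was the lowest. The log2 fold change of Irs2 was 0.09 (SE 0.15, 95% interval −0.25 to 0.42, adjusted p = 0.856).

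In all, 0 of the 7 tested IDs of these genes were called at an adjusted p under 0.05 in edgeR, beside 0.0299% of all tested IDs (4 of 13374). Before adjustment, 1 of 7 was past 0.05 with higher levels in males (Ddit4), beside 6.68% of all tested IDs, and 1 of 7 with higher levels in females (Foxo1), beside 4.82%. The sexes did not overlap in 3 of 7, beside 17.1% of all tested IDs. Levels were higher in males for 2 of these (Ddit4 and Foxo3), beside 8.7%, and higher in females for 1 (Foxo1), beside 8.35%. DESeq2 gave an adjusted p for 6 of the 7, all but Sesn1, and called 1 of these 6 (Ddit4), beside 1.55% of the IDs it gave an adjusted p, and with 1 RUVr factor it called 2 of 7 (Ddit4 and Foxo1), beside 3.88%. As Foxo1 and Ddit4 were chosen by the study for a difference in these samples, these shares say nothing about the pathway.

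**Figure D3:**
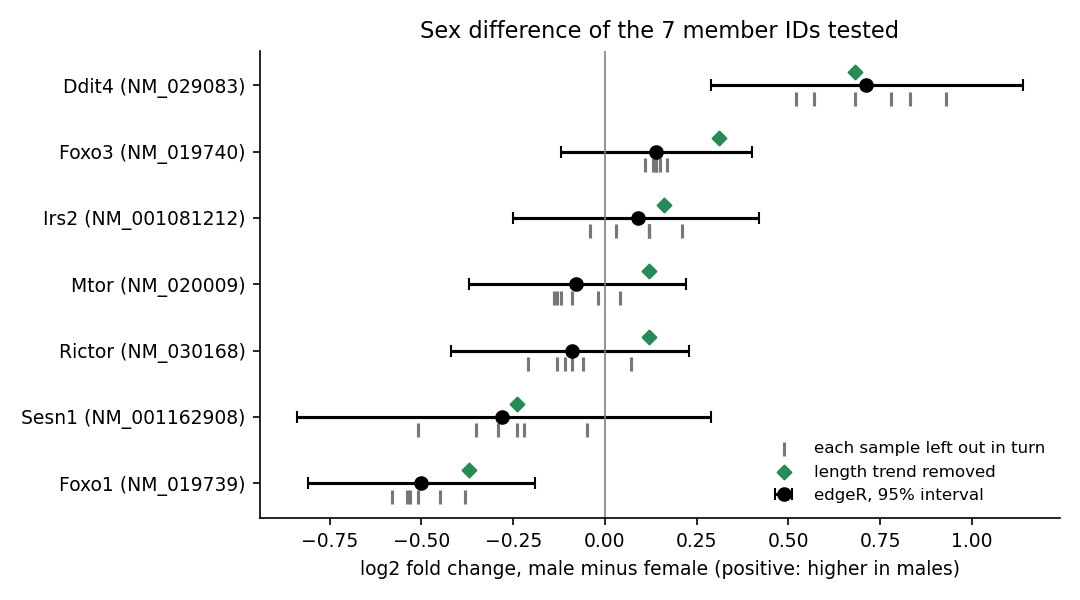
Log2 fold change (male minus female, horizontal axis) of the 7 tested IDs as circles with the 95% interval from edgeR's quasi-likelihood test, with diamonds for the value after removal of the length trend and ticks for each sample left out in turn. The intervals of Ddit4 (0.29 to 1.14) and Foxo1 (−0.81 to −0.19) lie on opposite sides of 0, and the other 5 include 0.

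Per length of the longest annotated transcript, and as a mean over the 6 samples, Ddit4 was at 35.4 CPM per kb (lowest to highest sample 21.0 to 55.0), Mtor at 27.8 (22.2 to 30.9) and Rictor at 27.2 (20.1 to 30.8). The first place of Ddit4 came from the males, at 44.1 ± 9.56 CPM per kb (SD, n = 3), while in females it was at 26.7 ± 6.4, beside 28.6 ± 2.03 for Mtor and 28.1 ± 1.14 for Rictor. Irs2 at 15.0 (11.8 to 16.9), Foxo1 at 14.5 (9.97 to 18.3) and Foxo3 at 13.2 (12.1 to 14.1) formed a lower group, and Sesn1 was at 3.68 (2.22 to 4.34). The order within the first 3 and within the next 3 was not resolved, since their ranges over the 6 samples overlapped. In females Foxo1 was above Foxo3 per length in every sample, and in males Foxo1 was below Foxo3 in every sample. Sesn1 stood below all of them in every sample. Rptor, at 0.0563 CPM per kb, was far below its mTORC2 counterpart Rictor, with the doubt over its ID given above.

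Across the 6 samples, Mtor and Rictor levels varied together (Pearson r = 0.93, log2 CPM), as did Mtor and Sesn1 (0.93), while Foxo1 and Foxo3 varied in opposite directions (−0.88). Foxo3 and Ddit4 had a correlation of 0.83. The 6 points share libraries and sexes, and male sample 1 is at an extreme for Mtor, Rictor, Sesn1 and Ddit4, so these correlations are descriptions only. Among 8358 IDs of at least 50 counts on average, the patterns most like that of Foxo1 were those of Rybp (0.995), Wdr26 (0.995) and Yod1 (0.995), and 250 IDs had a correlation above 0.9. For Ddit4 they were Sec62 (0.999), Acaa2 (0.997) and Snx17 (0.996), and 721 IDs were above 0.9. With 6 samples such close patterns were common.

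The other genes of the pathway were examined in lists by role, and no ID of any list was called in edgeR without added factors and with the low-count filter. Besides Foxo1 and Ddit4, the alternatives called a single list ID, the Foxo target Pink1, with edgeR and 2 RUVr factors (log2 fold change 0.42, adjusted p = 0.0452). In the Foxo family, with all 4 genes measured, Foxo4 was at 59.3 ± 13.5 CPM in females and 67.7 ± 8.63 CPM in males (log2 fold change 0.19, SE 0.17, edgeR adjusted p = 0.696). Foxo6, a family member known from the brain, was at 32.9 ± 4.69 and 39.7 ± 5.82 CPM (0.27, SE 0.17, adjusted p = 0.552). In this fit Foxo1 was thus the only one of the 4 with a negative value. Among 20 tested IDs of Foxo target genes the median was −0.12, and 3 of 20 IDs were past 0.05 before adjustment, each with a higher level in males, beside 6.68% of all tested IDs. The count was 1 without female sample 1, without male sample 1 or without male sample 2, and also with upper-quartile factors and with a replicate block. The 3 IDs were Pink1, a kinase of mitochondrial quality control (log2 fold change 0.42, SE 0.14, adjusted p = 0.341), Ccng2, an atypical cyclin (0.36), and Sod2, the mitochondrial superoxide dismutase (0.27). The sexes were without overlap in 5 of the 20 with higher levels in females (Sesn3, Gadd45a, Cat, Trim63 and NM_001077364 of Tsc22d3), beside 8.35% of all tested IDs, and in 2 with higher levels in males (Pink1 and Sod2), beside 8.7%. The lowest of these targets with 50 or more counts on average was Tsc22d3 (NM_010286), given above.

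Upstream of mTOR, the tested part of the TSC and Rheb list was Rheb and its relative Rhebl1, the GTPases under control of the TSC complex. Rheb was at 81.8, 85.5 and 103 CPM in females and at 126, 105 and 106 CPM in males. Its sexes did not overlap, narrowly, with a log2 fold change of 0.31 (SE 0.14, edgeR adjusted p = 0.418). Rhebl1 was at 5.19 ± 1.21 CPM in females and 7.92 ± 0.162 CPM in males (0.62, SE 0.29, adjusted p = 0.436). Of 11 tested IDs of stress and energy inputs, which include Ddit4 itself, the median was −0.05. The other sestrins differed in sign from each other. Sesn2 was at a log2 fold change of 0.22 (SE 0.2, adjusted p = 0.683) and Sesn3 at −0.22 (SE 0.13, adjusted p = 0.534). The Ddit4 paralog Ddit4l was at −0.05 (SE 0.2, adjusted p = 0.944).

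Amino acid sensing inputs, the GATOR and Ragulator components that bring mTORC1 to the lysosome, had a median of 0.02 over 22 tested IDs. In 5 of the 22 the sexes did not overlap, each with a higher level in males (Lamtor4, Lamtor5, Wdr24, Sec13 and Kptn), beside 8.7% of all tested IDs, and none was without overlap in the opposite direction, beside 8.35%. Sec13, a GATOR2 and coat protein, was at 153 ± 23.9 CPM in females and 201 ± 9.85 CPM in males (0.39, SE 0.13, edgeR adjusted p = 0.344). The mTOR complex list had only 6 tested IDs of 11. Deptor, Mlst8, Telo2 and Rptor were below 10 counts in every sample at the IDs used, and Tti1, which helps to assemble mTOR, was at −0.05 (SE 0.14, adjusted p = 0.925).

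Insulin and PI3K-Akt signalling genes leaned to lower values in males, with a negative log2 fold change in 16 of 19 tested IDs, beside 51.0% of all tested IDs, and a median of −0.17. The lean was not seen once the length trend was removed, with a median of −0.01. Igf1r, the receptor for insulin-like growth factors, was at 734, 645 and 627 CPM in females and at 493, 493 and 588 CPM in males. All male samples lay below all female samples, with a log2 fold change of −0.35 (SE 0.12, edgeR adjusted p = 0.355). The sexes did not overlap in 3 of the 19 with higher levels in females, beside 8.35% of all tested IDs. With higher levels in males it was 0 of the 19, beside 8.7%. Among IDs averaging at least 50 counts, Pik3r2, a regulatory subunit of PI3K, was the highest at 0.23 (SE 0.14, adjusted p = 0.524). Among mTOR effectors the median was −0.20 over 12 IDs and −0.05 after removal of the length trend, and single IDs ranged from −1.42 to 0.77. In 3 of the 12 the sexes did not overlap with higher levels in females (Larp1, NM_001114334 of Rps6kb1 and NR_153659 of Rps6kb2), beside 8.35% of all tested IDs. With higher levels in males it was 0 of the 12, beside 8.7%. Among those of at least 50 counts on average, the lowest was Eif4ebp2, a repressor of cap-dependent translation, at −0.33 (SE 0.2, adjusted p = 0.543), and the highest was Eif4b, a translation initiation factor, at 0.13 (SE 0.12, adjusted p = 0.7).

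Several of these values were different when the trend of counts with transcript length was removed from each sample. After this removal the log2 fold change of Ddit4, whose transcript has 1685 bases, was 0.68 (SE 0.2), close to the value without removal. That of Foxo1 (5552 bases) was smaller in size at −0.37 (SE 0.17). Foxo3 (6848 bases) was at 0.31 (SE 0.15), so that the distance between both Foxo factors remained. Mtor (8564 bases) and Rictor (9311 bases) both went from negative values to 0.12. The direction of the 2 longest transcripts thus depended on this choice.

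**Figure D4:**
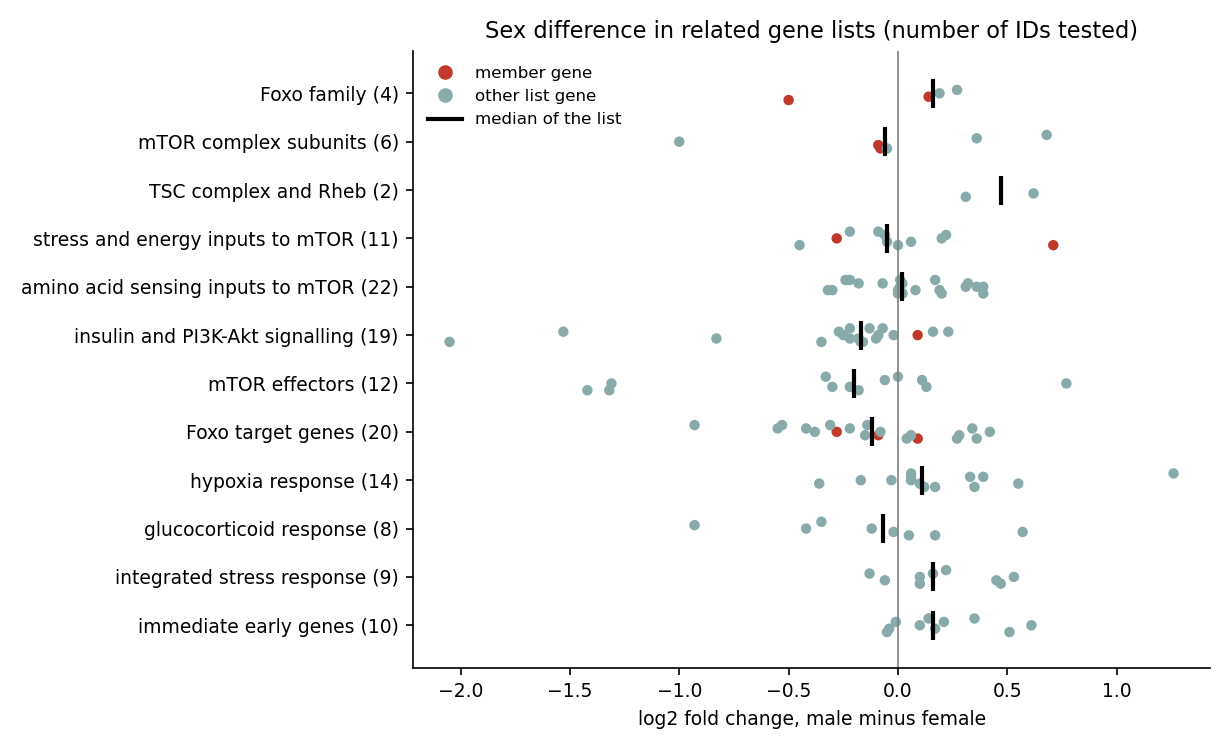
Log2 fold change (male minus female, horizontal axis) of each tested ID by pathway list, with red points for the 10 genes described here, grey-green points for other list genes and a line at each list's median. Medians lie between −0.20 (mTOR effectors) and 0.47 (TSC complex and Rheb, 2 IDs), beside −0.01 over all 13374 tested IDs, and no ID plotted here was called in this fit (edgeR, low-count filter, no RUVr factors).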

How the data were processed

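Counts were deposited by the authors, 1 table per sample, unnormalised, for each RefSeq transcript ID. According to the study's methods and processing notes, stranded paired-end total RNA reads were trimmed (Trimmomatic 0.32), aligned to mm9 (NCBIM37; TopHat2 2.1.1), assembled (Cufflinks 2.2.1) and counted (featureCounts 1.5.1). Treatment of shared and multi-mapped reads and of strand is not given in the sources used here. Symbols came from a RefSeq gene table (99.5% of IDs), and positions and lengths from GENCODE for NCBIM37 (91.6% of IDs).

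IDs that reached 10 counts in any sample were compared by edgeR's quasi-likelihood test (TMM) with Benjamini-Hochberg adjustment over 13374 IDs, and a call was an adjusted p under 0.05. Positive log2 fold changes are higher in males. The study itself used DESeq2 with RUVr factors, of a number that is not stated, and such fits were alternatives here, with factors computed from edgeR deviance residuals. Ratios within a sample used 0.5 added counts and exact permutation over the 6 samples. Alternatives were other scalings, filters, tests and factors, a length correction, summing by gene, a replicate block and leaving out each sample. The labels give no batch, date or litter.

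The genes, lists and alternatives were chosen with earlier results of these data known. Named list genes are those with the highest and lowest log2 fold change at a mean of 50 or more counts. A gene that this rule names is not reported here. Foxo4, the other sestrins, Ddit4l, P4ha1, Ccng2, Sod2, Gadd45a, Cat, Trim63, NM_001077364 of Tsc22d3, Lamtor4, Lamtor5, Wdr24, Kptn, Larp1, Rps6kb1, Rps6kb2 and the mTOR complex genes below 10 counts were named after their values were seen. Software was R 4.3.3, edgeR 4.0.16, DESeq2 1.42.0, Python 3.11.15, pandas 2.3.3 and matplotlib 3.10.9, and the fits were tested on simulated data.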

Additional observations from a re-analysis of the deposited data

How the results depend on the processing

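The calls of Foxo1 and Ddit4 depended on the test, the filter and the RUVr factors. Foxo1 was called with DESeq2 and 1 RUVr factor (log2 fold change −0.52, adjusted p = 0.0308) and with edgeR and 2 RUVr factors (−0.51, adjusted p = 0.0408), and its log2 fold change stayed between −0.58 and −0.37 over 18 alternatives. Ddit4 was called without a low-count filter (0.74, adjusted p = 0.00298), with DESeq2 (0.71, adjusted p = 0.0455), with DESeq2 and 1 RUVr factor (0.68, adjusted p = 0.00729) and with edgeR and 2 RUVr factors (0.71, adjusted p = 0.0111). The number of called IDs of the 10 genes was thus 1 without a filter, 1 with DESeq2, 2 when 1 RUVr factor joined DESeq2 and 2 when 2 such factors joined edgeR. In the same order, the calls among all IDs with an adjusted p were 276 of 23485, 95 of 6114 (1.55%), 348 of 8966 (3.88%) and 483 of 13374. With edgeR and 1 RUVr factor 0 IDs of these genes were called, beside 36 of 13374 IDs (Ddit4 0.69, adjusted p = 0.0694, and Foxo1 −0.51, adjusted p = 0.1). RUVr factors are estimated from the residuals that the test then uses.

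Mtor and Rictor changed direction when the length trend was removed (0.12 for both). Leaving out each sample in turn gave −0.14 to 0.04 for Mtor, −0.21 to 0.07 for Rictor, −0.04 to 0.21 for Irs2, −0.58 to −0.38 for Foxo1, 0.52 to 0.93 for Ddit4, 0.11 to 0.17 for Foxo3 and −0.51 to −0.05 for Sesn1, and called none of them. Mtor and Rictor were positive without male sample 1, and Irs2 was negative without female sample 2. With a replicate block Ddit4 was at 0.72 (adjusted p = 0.452) and Foxo1 at −0.51 (adjusted p = 0.491), and 0 IDs of these genes were called. Samples of the same number did not deviate together (correlations −0.29, −0.06 and −0.2). With only 3 samples per sex, this cannot decide whether the numbers pair the samples. The cause of these changes was not tested.

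With pools of several embryos, 3 samples per sex and 1 count table per sample, spread between embryos was not measured. Values for Rptor, Tsc1 and NM_001013370 of Sesn1 are limited by counts below 10, and a ratio of Tsc1 to Tsc2 was not computed.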
